A study of Mus musculus with 13 samples.

Results

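A set of 10 genes of cellular iron handling were followed in the enamel organ, the dental epithelium that forms enamel. They encode the transferrin receptor (Tfrc), the hemochromatosis protein (Hfe), the ferritin heavy and light chains (Fth1, Ftl1), ferroportin (Slc40a1), the divalent metal transporter (Slc11a2), transferrin (Trf), the iron regulatory proteins (Aco1, Ireb2) and the ferritin cargo receptor (Ncoa4). They were found by gene symbol, and 10 of 10 were matched among the 48709 mouse genes of the count table. The set was selected on the expression differences of these same libraries between mutant heterozygotes and wild type, with the difference of Hfe known. Genotype differences of these genes are therefore given as descriptions and support nothing on their own.

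The enamel organs came from lower incisors at postnatal day 11. In 5 libraries (Het) the mice carried 1 copy of a mutant Tgfbr2 allele, G357W, an allele of the TGF-beta type 2 receptor, and the other 8 libraries were wild-type littermates (WT). The mice received no treatment in the labels, and the sources used here give neither strain nor sex. Each library was taken as 1 mouse, and the p-values measure only the spread between these libraries. Libraries are named here by genotype and by the number pair in their column names, such as Het 4-2. The number before the hyphen (1, 4 or 5) is called the prefix, and its meaning is not stated in the labels or files.

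Iron enters most cells as transferrin bound to its receptor at the cell surface, is released in endosomes and crosses the endosomal membrane through Slc11a2. What is not used is stored in ferritin, recovered from ferritin through Ncoa4, or exported through ferroportin. In rodent incisors, ameloblasts of the maturation stage store iron in ferritin and release it into the enamel surface, which gives the teeth their orange colour. Hfe binds the transferrin receptor and, in liver, takes part in setting the hormone hepcidin.

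The iron regulatory proteins bind a hairpin called the iron-responsive element. In the 5′ untranslated region of an mRNA the bound hairpin blocks translation, and in the 3′ untranslated region of the Tfrc mRNA it protects the message from decay. The transcripts of GENCODE release M21 (GRCm38) were searched, on the transcript strand only, for a single C, 5 stem pairs, the loop CAGTGN and 3 further pairs below the C, with G-T pairs allowed. Such a hairpin lay in the 5′ untranslated region of 3 of the 10 genes and in the 3′ region of 1. Over all genes it was found in 5 of 20847 with a 5′ untranslated region (0.024%) and in 6 of 21611 with a 3′ region (0.0278%). The sequences below are shown because they are the element through which these mRNAs share a regulator, and capitals mark the loop.
Fth1, chr19:9982732-9982760, plus strand: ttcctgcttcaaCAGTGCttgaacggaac
Ftl1, chr7:45459779-45459807, minus strand: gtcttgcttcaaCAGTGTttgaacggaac
Slc40a1, chr1:45925465-45925493, minus strand: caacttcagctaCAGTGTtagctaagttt
Tfrc, chr16:32631219-32631247, plus strand: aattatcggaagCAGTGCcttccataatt
Tfrc, chr16:32631598-32631626, plus strand: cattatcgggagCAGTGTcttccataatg
Tfrc, chr16:32631663-32631691, plus strand: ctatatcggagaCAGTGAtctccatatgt
Tfrc, chr16:32631710-32631738, plus strand: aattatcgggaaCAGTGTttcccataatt

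The Tfrc message held 4 matches, and each other message held 1. Among the other iron genes examined, the same search found a match in Alas2, the erythroid enzyme that starts heme synthesis. A match is a description of the letters, and no match in the other 6 genes says only that this pattern is not in their annotated untranslated regions. Counts measure the amount of mRNA and not its translation.

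Library totals ran from 20266079 to 26122340 counts in Het and from 18852382 to 26508410 in WT. Tgfbr2, whose counts do not tell the alleles apart, differed between genotypes by 0.22 ± 0.11 on the log2 scale (SE, edgeR adjusted p = 0.742). The defining markers of the labelled tissue were present, with mean levels of 198908 for Ambn and 819 for Krt14 in counts-per-million units (CPM). Markers of other cells were present too, with mean levels of 2987 CPM for Col1a1 of the fibroblast list and 556 for Ibsp of the osteoblast list. The iron gene levels are therefore those of mixed tissue. None of the members tested in the 10 marker lists passed the edgeR threshold. In bulk tissue, fewer cells of a type and less RNA per cell cannot be told apart.

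In WT, ferritin stood far above the rest of the set. Per kilobase of annotated exon, Ftl1 had 852 ± 127 CPM (SD, n = 8) and Fth1 568 ± 136. Next came Tfrc with 68.6 ± 12.5, Slc11a2 with 18.4 ± 2.44 and Aco1 with 15.8 ± 3.37. Slc40a1 had 6.28 ± 3.23, Hfe 3.85 ± 0.584, Ireb2 3.79 ± 0.608 and Ncoa4 3.32 ± 0.713, and Trf was last at 0.312 ± 0.0761. On this scale Slc11a2 and Aco1 lay within their spread of each other, and so did the neighbours from Slc40a1 to Ncoa4. The order depended on the length used. Per kilobase of the longest principal transcript, a length chosen after seeing the data, Fth1 stood first with 1319 ± 315 CPM and Ftl1 next with 1179 ± 176. Their spreads overlapped, and Tfrc followed with 86.7 ± 15.8. Slc11a2 then had 38.7 ± 5.13, apart from Aco1 with 18.6 ± 3.95 and Slc40a1 with 16.8 ± 8.61, which overlapped. Ncoa4 had 7.64 ± 1.64 and Ireb2 6.23 ± 0.999 on that scale, and both stood above Hfe, whose level was the same on both scales.

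**Figure D1:**
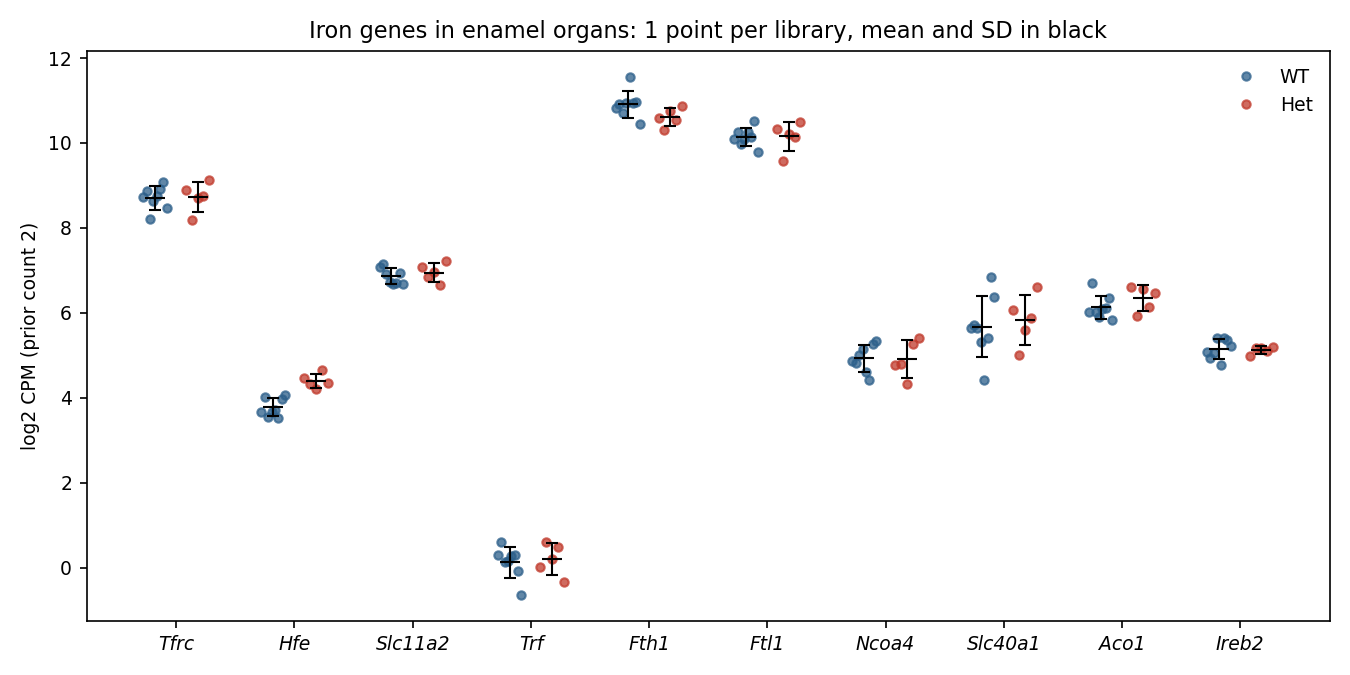
Level of each of the 10 genes (log2 CPM, vertical axis) in every library, WT in blue (n = 8) and Het in red (n = 5), with mean and SD in black. Hfe is the 1 gene whose genotypes do not overlap, and Slc40a1 has the widest spread in each genotype.

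Hfe (ENSMUSG00000006611), an MHC class I-like membrane protein, is encoded at chr13:23702034-23710854 on the minus strand of GRCm38. No annotated gene overlaps it. Its counts in Het were 472 in Het 1-2, 471 in Het 4-2, 519 in Het 4-5, 614 in Het 5-5 and 458 in Het 5-6. In WT they ran from 234 in WT 1-1 to 406 in WT 1-3. Scaled for depth, the Het libraries had 18.3 to 25.2 CPM with a median of 20.1, and the WT libraries 11.5 to 16.7 with a median of 12.9.

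All 5 Het libraries lay above all 8 WT libraries. Mean levels were 4.40 ± 0.17 log2 CPM for Het (SD, n = 5) against 3.78 ± 0.21 for WT (SD, n = 8). This is a fold of 1.53, or 0.62 ± 0.12 on the log2 scale (SE). Within prefixes 1, 4 and 5 Het exceeded WT by 0.71, 0.62 and 0.48 log2 CPM, a direction that the lack of overlap fixes. Of all genes tested, 0.490% had ranges apart, 0.257% with Het higher, from which nothing is read for a gene picked with this contrast known. Macrophages are among the cells that express Hfe. Their 11 markers, 9 of them tested, summed to 79.6 to 168 CPM in Het against 92.9 to 134 in WT, with Vsig4 at 0. The genotypes overlapped in this sum, and its part in the Hfe difference was not tested.

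**Figure D2:**
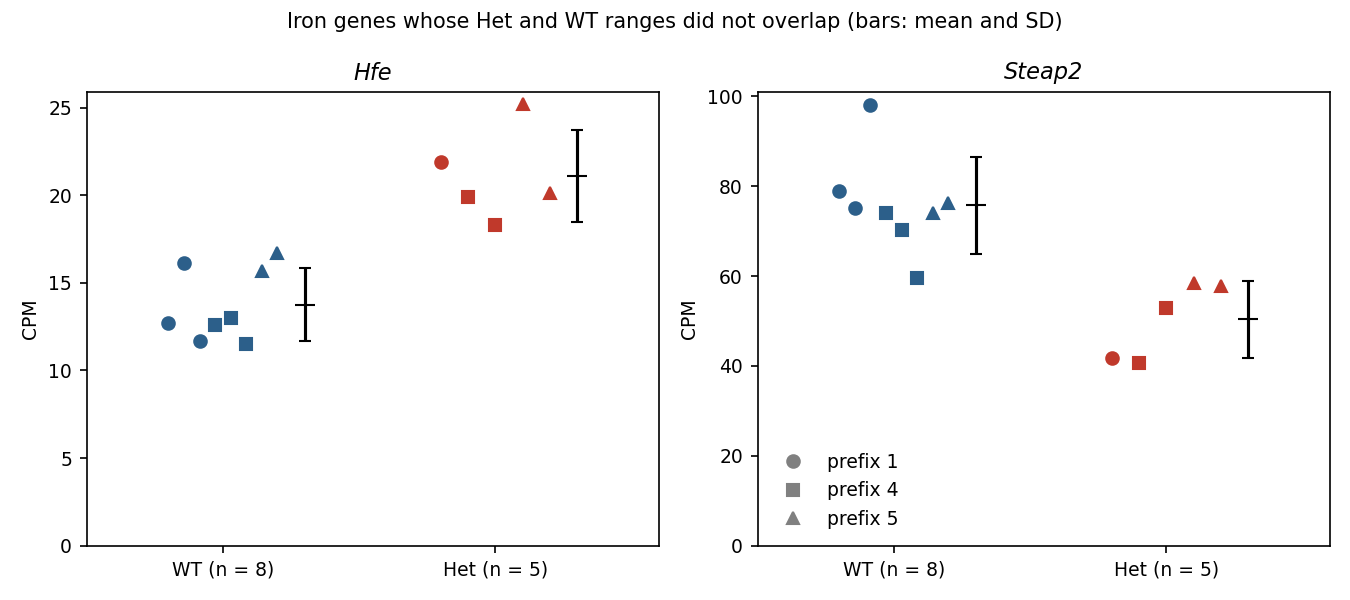
Hfe and Steap2 in every library (CPM, vertical axis, from 0), with WT in blue, Het in red, marker shape giving the prefix and bars giving mean and SD. Hfe lies between 18.3 and 25.2 CPM in Het, above the WT maximum of 16.7, and Steap2 lies below the WT minimum of 59.5 CPM in Het.

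Of the 10 genes, 8 had positive and 2 negative log2 fold changes, with a median of 0.05, or 0.03 without Hfe. Over all genes 49.1% were positive and the median was 0.00. With edgeR's quasi-likelihood test, adjusted over 16328 genes, 0 of the 10 genes passed 0.05, where 0.0857% of all genes passed. At an unadjusted p under 0.05 there was 1, Hfe, against 6.90% of all genes. Hfe stood just outside the threshold (edgeR adjusted p = 0.0545), and over 26 alternatives its adjusted p ran from 0.000972 to 0.695 (without prefix 1). It was called by DESeq2 (0.000972, where 0.410% of genes were called), with the prefix as a term (0.0231, 0.184%), with no filter on low counts (0.0370, 0.0858%) and with at least 1 CPM in 5 libraries (0.0469, 0.176%). It was also called without WT 5-1 (0.0434) or without WT 5-3 (0.0443), which makes 6 of the 26. It was not called in the rest. Among these were limma-voom (0.0569, 0.0980%), the fit without prefix 4 (0.3315) and the fit without prefix 5 (0.2695). The fold change itself lay between 0.55 and 0.67 on the log2 scale in all 26.

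Tfrc (chr16:32608920-32632794, plus strand) carries transferrin-bound iron into the cell and is a binding partner of Hfe. Its levels were 472, 292, 415, 432 and 559 CPM in Het 1-2, 4-2, 4-5, 5-5 and 5-6. In WT the lowest was 295, the median 429.6 and the highest 544. The genotypes overlapped almost completely, with a log2 fold change of 0.03 ± 0.15 (SE). Within prefixes 1, 4 and 5 the differences were 0.28, -0.33 and 0.17, with no single direction. Developing red cells carry much of the body's transferrin receptor. Of 13 erythroid markers 12 were matched and tested, and they summed to 195 to 369 CPM in Het against 237 to 379 in WT. The hemoglobin genes Hbb-bs (mean 157 CPM) and Hba-a1 (48.1) weighed most in this sum, while Klf1 had 0.04 to 1.23 CPM. The sum is therefore mostly a measure of hemoglobin mRNA, and the part of developing red cells in the Tfrc values was not tested. B2m, the light chain that Hfe needs to reach the surface, had 0.05 ± 0.13 and was chosen for its role after its value was seen.

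Slc11a2, which moves ferrous iron out of the endosome, ranged from 100.1 to 149 CPM in Het and from 102 to 141 in WT. Its log2 fold change was 0.09 ± 0.11 (SE), and it varied little, by 13.7% (coefficient of variation over 13 libraries). A gene on the opposite strand, Gm5475, overlaps its exons, and the reads carry no strand. Gm5475 had at most 32 counts in a library, which does not show how reads from the shared stretch were counted. Trf, the plasma carrier of iron made chiefly in liver, had the fewest counts of the set, 16 to 34 in Het against 13 to 36 in WT. Gm20425 overlaps the Trf exons on the same strand and was listed at 0 counts in every library, and how reads of both genes were counted is not known here. The Trf log2 fold change was 0.07 ± 0.28 (SE).

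Fth1 (chr19:9980598-9985098, plus strand), the ferritin chain that oxidises iron for storage, had the largest negative difference of the set. Its levels were 1551, 1267, 1719, 1478 and 1874 CPM in Het 1-2, 4-2, 4-5, 5-5 and 5-6. In WT the lowest was 1399, the median 1953 and the highest 3023, in WT 4-3. The genotypes overlapped, with 1 Het library below all WT libraries. The log2 fold change was -0.32 ± 0.16 (SE) and shrank to -0.21 without WT 4-3. Within prefixes 1 and 4 the differences were -0.22 and -0.62, and in prefix 5 the Het and WT means were level. The 9 maturation ameloblast markers (8 tested, none called) summed to 26854 to 51881 CPM in Het against 39728 to 55189.5 in WT. Odam (mean 41265 CPM) made up nearly all of this sum, ahead of Amtn (937). The part of maturation ameloblasts in the Fth1 values was not tested.

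Ftl1 (chr7:45457944-45459884, minus strand), the chain that favours the mineral core, had 1278, 766, 1192, 1126 and 1453 CPM in the Het libraries in the same order. In WT it ranged from 886 to 1461 with a median of 1112, for a log2 fold change of 0.03 ± 0.15 (SE). The count of Fth1 per count of Ftl1 was 1.21 to 1.65 in Het and 1.36 to 2.46 in WT, or 1.36 to 1.79 without WT 4-3. Both chains have pseudogene copies that can share reads. Fth1-ps had 727 to 1614 counts per library, Fth-ps2 22 to 49, Ftl1-ps1 29 to 64 and Ftl1-ps2 5 to 20, against at least 30065 for Fth1 and 18186 for Ftl1. Gm22133 on the same strand and Gm10252 on the opposite strand overlap Ftl1 exons, with 0 and at most 4 counts in a library. These counts do not show how shared reads were counted.

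**Figure D3:**
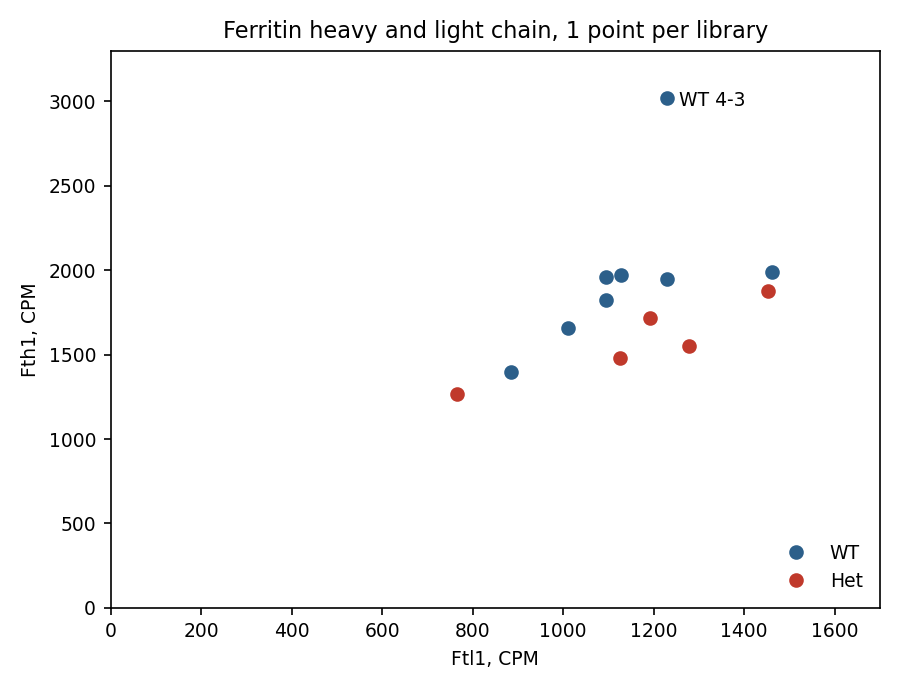
Fth1 (vertical axis) against Ftl1 (horizontal axis), both in CPM with axes from 0, 1 point per library, WT in blue and Het in red. WT 4-3 stands apart at 3023 CPM of Fth1 and an Ftl1 level of 1229 CPM, and the other WT libraries reach at most 1992.

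The genotypes also overlapped in the iron regulatory proteins. Aco1, cytosolic aconitase, which becomes an RNA-binding protein when it loses its iron-sulfur cluster, had 60.6 to 98.0 CPM in Het and 57.0 to 104 in WT. Its log2 fold change was 0.21 ± 0.14 (SE), positive in each prefix (0.36, 0.21 and 0.22), though the genotypes overlapped within each prefix. Ireb2, the second regulatory protein, which is degraded when iron is ample, had 31.5 to 36.8 CPM in Het and 27.2 to 42.5 in WT. Its log2 fold change was -0.04 ± 0.11 (SE), and it was the least variable gene of the set at 12.9%.

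Slc40a1 (chr1:45908068-45926523, minus strand), the exporter of iron from cells, varied most, by 45.3%, and 5.36-fold between its lowest and highest library. The levels in Het 1-2, 4-2, 4-5, 5-5 and 5-6 were 67.1, 32.0, 48.2, 58.4 and 97.3 CPM. In WT the lowest was 21.4 in WT 4-3, the median 49.8 and the highest 115 in WT 5-1. The genotypes overlapped, and the log2 fold change was 0.10 ± 0.34 (SE). It was -0.14 without Het 5-6, -0.02 without WT 4-3 and 0.33 without WT 5-1. Ncoa4, which delivers ferritin to lysosomes for iron release, had 19.8 to 42.4 CPM in Het and 21.1 to 40.1 in WT, with a log2 fold change of 0.00 ± 0.17 (SE).

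**Figure D4:**
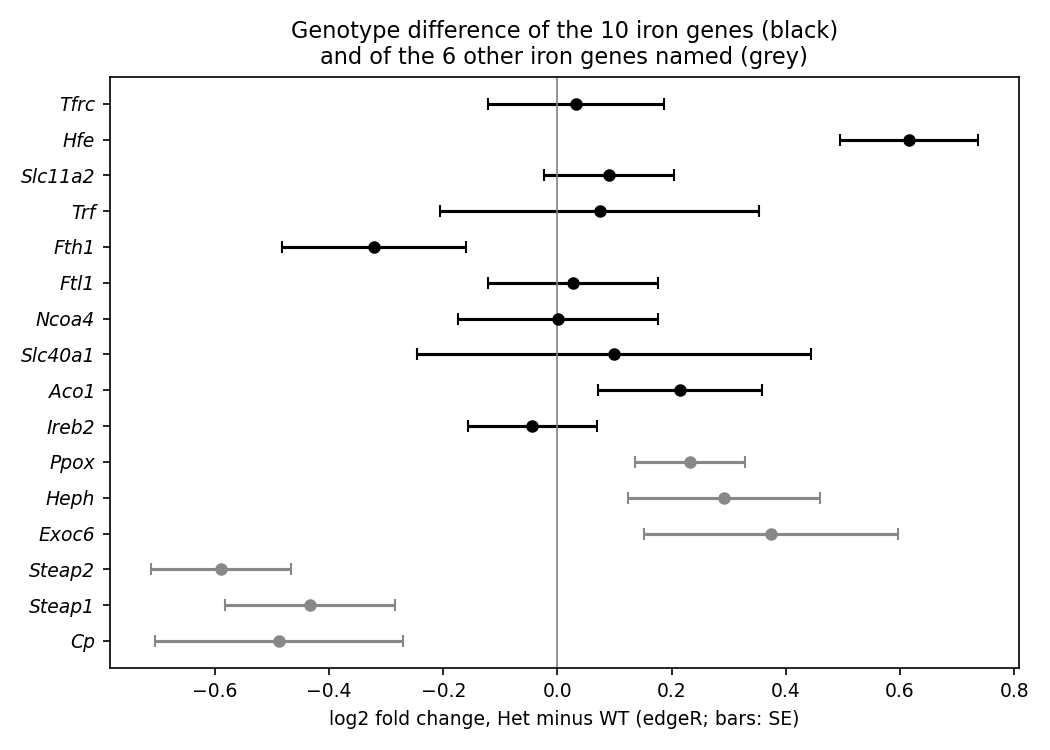
Log2 fold change, Het minus WT (horizontal axis), with SE bars, for the 10 iron genes in black and the 6 other iron genes named by rule in grey. Hfe lies at 0.62 and Steap2 at -0.59, and the remaining genes in black lie between -0.32 and 0.21.

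The prefix, which played no part in choosing the genes, was tested with genotype in the model (edgeR F test adjusted over all genes). It called 2 of the 10 genes, Slc40a1 (adjusted p = 0.00752) and Ncoa4 (adjusted p = 0.0240), where 6.08% of all genes were called. Slc40a1 had 58.4 to 115 CPM in the 4 libraries of prefix 5, 49.6 to 67.1 in the 4 of prefix 1 and 21.4 to 48.2 in the 5 of prefix 4. Prefixes 1 and 4 did not overlap. Ncoa4 had 38.2 to 42.4 CPM in prefix 5, above every other library. It had 27.1 to 32.1 in prefix 1 and 19.8 to 35.6 in prefix 4. Adjusted p for the other 8 genes was between 0.217 (Hfe) and 0.766 (Ftl1).

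Both calls were lost where prefix 4 or prefix 5 was left out, and so was nearly every other call of the prefix test. In a fit of prefixes 1 and 4 alone, the edgeR adjusted p was 0.186 for Slc40a1 and 0.711 for Ncoa4, and 0 genes were called in all (2098 at an unadjusted p under 0.05). Without prefix 4 it was 0.334 and 0.305, and 1 gene was called in all. Without prefix 1 both genes were called. Slc40a1 was called in all 13 fits that left out 1 library. Ncoa4 lost its call without Het 4-5, Het 5-5, Het 5-6, WT 5-1 or WT 5-3, with adjusted p from 0.0559 to 0.0664. The sums of 2 marker lists shifted with the prefix, without a test. The 6 fibroblast markers, all tested, summed to 4399 to 6249 CPM in prefix 5, 6244 to 8657 in prefix 1 and 6688 to 11796 in prefix 4. Col1a1 (mean 2987 CPM) and Col3a1 (2575) weighed most in this sum. Col1a1 and Col1a2 were lower in every library of prefix 5 than in any of prefix 4. Col3a1, Pdgfra, Dcn and Lum overlapped between these prefixes. Lum had 182.7 to 330.6 CPM in prefix 5 and 180.8 to 241.1 in prefix 4. The 5 secretory ameloblast markers summed to 264395 to 288673 CPM in prefix 5, 192355 to 267677 in prefix 1 and 145768 to 242718 in prefix 4. Ambn (mean 198908 CPM) made up most of this sum. Ambn, Enam and Mmp20 were higher in every library of prefix 5 than in any of prefix 4. Amelx and Acp4 overlapped, with Amelx at 16058 to 20986 CPM in prefix 5 and 10688 to 22277 in prefix 4. The part of fibroblasts and secretory ameloblasts in the prefix differences was not tested. Macrophages are rich in ferroportin. Their markers summed to 79.6 to 168 CPM in prefix 5, 102 to 131 in prefix 1 and 92.9 to 119 in prefix 4. The part of macrophages in the Slc40a1 values was not tested.

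**Figure D5:**
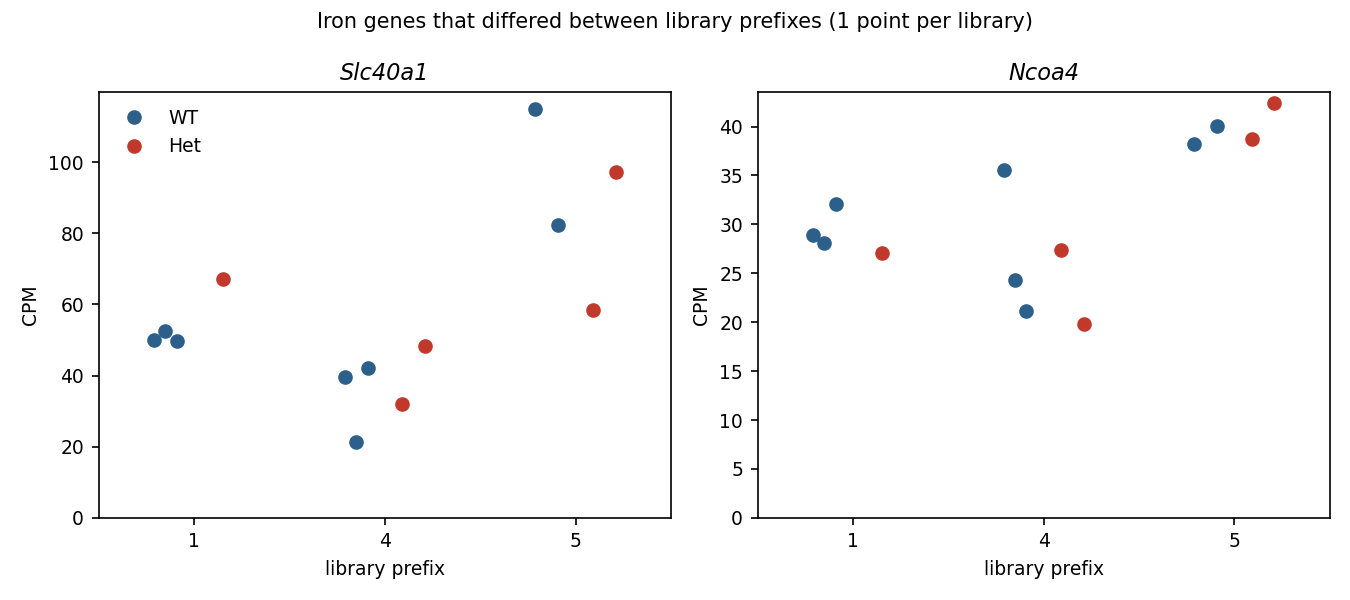
Slc40a1 (left) and Ncoa4 (right) in CPM by library prefix, 1 point per library, WT in blue and Het in red, with axes from 0. The 3 highest libraries of Slc40a1 and the 4 highest of Ncoa4 are in prefix 5.

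A list of 58 other iron genes put the set in context. With edgeR, 0 of the 52 tested passed the genotype threshold in either direction (0.0857% of all genes did), and 4 had an unadjusted p under 0.05, where 6.90% of all genes did. DESeq2 called 1, Steap2 (0.410% of all genes), and limma-voom 0 (0.0980%). In the prefix test 6 of the 52 were called, where 6.08% of all genes were. The list had 34 positive and 18 negative log2 fold changes with a median of 0.06, beside 49.1% positive and a median of 0.00 over all genes tested. The genes of the list were measured in the same libraries and are not independent, so these counts carry no test.

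Among reductases and other uptake genes (14 of 15 tested), the metalloreductase genes Steap2 and Steap1 had the smallest p of the genes lower in Het. Steap2 had 41.8, 40.6, 53.0, 58.5 and 57.8 CPM in Het 1-2, 4-2, 4-5, 5-5 and 5-6 and 59.5 to 98.1 in WT. The ranges did not overlap, as for 0.233% of all genes with Het lower, though the highest Het and lowest WT library were close. Its log2 fold change was -0.59 ± 0.12 (SE, edgeR adjusted p = 0.0690), with adjusted p from 0.00327 (DESeq2) to 0.906 over the alternatives. It was called in 4 of these 26. Steap1 had 56.2 to 98.3 CPM in Het and 63.5 to 111 in WT (-0.43 ± 0.15, adjusted p = 0.514). Exoc6, which serves transferrin receptor recycling, had 0.37 ± 0.22 (adjusted p = 0.775). Steap3, the endosomal ferrireductase of developing red cells, had 0.00 ± 0.15 and was chosen for its role after its value was seen.

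Of the export genes (2 of 3 tested), the ferroxidase ceruloplasmin (Cp) had -0.49 ± 0.22 (SE, edgeR adjusted p = 0.699) and hephaestin (Heph) 0.29 ± 0.17 (adjusted p = 0.763). Of 17 genes of heme synthesis, transport and breakdown, all tested, 15 had positive values with a median of 0.10. Their smallest p was that of Ppox, an enzyme late in heme synthesis, at 0.23 ± 0.10 (SE, edgeR adjusted p = 0.666). The mitochondrial import and iron-sulfur cluster genes (10 of 10 tested) were evenly divided, with 5 positive and 5 negative values between -0.17 and 0.30. The 3 chaperone and storage genes tested ran from -0.12 to 0.03.

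Transcripts of the hormone hepcidin, which brings about the degradation of ferroportin, were not detected at this depth. Hamp and Hamp2 had 0 counts in all 13 libraries, which allows up to 3 counts in 305591619, or 0.00982 CPM of the unscaled totals (counting error only). Hjv, the hemojuvelin co-receptor for hepcidin control, had at most 2 counts in a library, and mitochondrial ferritin (Ftmt) at most 1. These 4 genes were named after their values were seen. Of the 6 regulatory genes tested, 3 had positive and 3 negative log2 fold changes, with edgeR adjusted p from 0.786 to 0.982.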

How the data were processed

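Libraries were unstranded (Nextera XT) and were sequenced with 75-base reads in 2 runs of a NextSeq 500, per the labels' protocols. The submitters' processing notes name STAR 2.5.2a, GRCm38, DESeq2, edgeR and limma. The sources used here name no counting tool. Every test started from the raw counts of 48733 features as the authors deposited them. The 24 spike-in and transgene features, at most 0.000177% of a library, were left out. The authors also deposited a filtered count table, whose features served as an alternative filter, and a TMM-scaled CPM signal, used only for gene names.

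Genes passing filterByExpr (count minimum 10; 16328 genes, all 10 iron genes among them) were tested with edgeR 4.0.16 in R 4.3.3 (TMM, robust glmQLFit, glmQLFTest) and Benjamini-Hochberg adjustment at 0.05. SE came from the F statistic. CPM uses TMM-adjusted library sizes, and log2 CPM adds a prior count of 2. Columns carry no replicate number of the labels and were assigned to genotypes only. The lowest chi-square over 78 library pairs was 11.4 per gene, so none was counted as a repeat. Alternatives were scaling by RLE or by upper quartile, other filters, no robust estimation, DESeq2 1.42.0, limma-voom (3.58.1), the prefix as a term, and leaving out libraries or prefixes.

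The genes, lists, tests and alternatives were chosen with earlier results of these data known. Named were all 10 genes, other iron genes past the threshold or with the 3 smallest p in each direction, and for Hfe, Tfrc and Slc40a1 the 3 genes most like them (mean of at least 0 log2 CPM, no Gm or Rik symbols). On data simulated for Het against WT (16328 genes), edgeR recovered 35.8% of genes changed 1.5-fold, 83.6% changed 2-fold and 100% changed 4-fold. For the prefix (16328 genes), with the changes put into prefix 4 alone, it recovered 26.9%, 65.7% and 98.5%. Changes in the other prefixes were not simulated. In both simulations the changed genes were drawn only from those above a set mean count. Of 162 genes called in the simulation for Het against WT, 16 were unchanged ones, and of 136 called for the prefix, 9 were. Gene models and hairpins came from GENCODE M21 (GRCm38).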

Additional observations from a re-analysis of the deposited data

Results flagged for a closer look

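Fth1 in WT 4-3 stood far from the other WT libraries, at 11.56 log2 CPM. Its gap to the next WT library was 0.541 of the range of the 8, above the limit of 0.526 at which about 1 in 20 groups is noted by chance. It was the 1 such sample in 20 groups (10 genes in each genotype), which is about the number that this limit gives by chance. The library also had the lowest TMM scaling factor of the 13, 0.9201. Outside the 10 genes, Lyrm4 (166.6 CPM) and Col1a1 (6314 CPM) were highest in it as well, while Col1a2 (1602 CPM) was not. These 3 genes were picked after their values were seen. In the same library the pseudogene Fth1-ps had its highest count, 1614, Slc40a1 its lowest level, 21.4 CPM, and Ftl1 an ordinary 1229 CPM. Without this library the Fth1 log2 fold change was -0.21 in place of -0.32.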

How the results depend on the processing

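No paired analysis was possible because the columns carry no replicate number of the labels. A fit with the prefix of the column names as a term was possible, and it called Hfe (edgeR adjusted p = 0.0231) and Steap2 (0.0460). Of all genes tested, 14 passed the edgeR threshold between genotypes, against 27 with no filter, 25 with a filter of 1 CPM in 5 libraries, 74 with DESeq2 and 30 with the prefix as a term. Without prefixes 1, 4 and 5 there were 0 (731 at an edgeR unadjusted p under 0.05), 1 and 2, without the libraries highest in muscle markers (Het 1-2 and WT 1-4) there were 2, and with 1 library left out 6 to 22. Among the 10 iron genes the count of 0 became 1, always Hfe, under DESeq2, the prefix as a term, the 1 CPM filter and no filter, and 0 to 1 with 1 library left out (1 without WT 5-1 or WT 5-3). Among the other iron genes the count of 0 became 1, always Steap2, with no filter, with DESeq2 and with the prefix as a term, and 0 to 1 with 1 library left out (1 without WT 4-4). The 2 calls of the prefix test became 0 without prefix 4 or prefix 5 (added after seeing the data), 1 without the libraries highest in muscle markers, and 1 to 2 with 1 library left out. Over 26 alternatives, Hfe, Fth1, Slc11a2, Ireb2 and Aco1 kept the direction of their genotype difference in all. Tfrc kept it in 19, Ftl1 in 20, Slc40a1 and Trf in 23 and Ncoa4 in 17, and none of these 10 differences moved by more than the SD between libraries of a genotype. The levels per kilobase of 8 genes in WT moved by more than their SD with the principal transcript length. Counting depth limits Trf most, with 13 to 36 counts per library.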

Other observations

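After the genotype means were subtracted, the genes whose log2 CPM most resembled that of Hfe over the 13 libraries were Atraid (Pearson r = 0.923, Spearman rho = 0.797), Ccp110 (0.891 and 0.835) and Osgepl1 (0.886 and 0.896). For Tfrc they were Ftl1-ps1 (0.922 and 0.824), Opn5 (0.917 and 0.863) and Cryaa (0.909 and 0.956). For Slc40a1 they were Ppp2r3c (0.941 and 0.857), Manea (0.939 and 0.901) and Ide (0.933 and 0.962). These are the highest of all genes tested with a mean of at least 0 log2 CPM and no Gm or Rik symbol, so they are descriptions with no p, and the points share the prefixes. None of the 3 genes most like Hfe shared its genotype difference in size, with log2 fold changes of 0.21, -0.13 and 0.10.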
